A study of Homo sapiens with 51 samples.

Results

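Classical-type gastrointestinal differentiation genes are the 9 genes GATA6, HNF4A, FOXA2, CDX2, LGALS4, AGR2, TFF1, TFF2 and TFF3. They were taken by symbol from a count table of 25421 gene symbols, and all 9 had a row. The table came from a study that overexpressed OVOL2, a zinc-finger transcription factor of epithelial cells, in human pancreatic ductal adenocarcinoma cell lines. Bulk RNA was counted by PLATE-seq, which barcodes cDNA of the 3′ ends of transcripts well by well and pools it. The 51 libraries fell in 17 groups of 3. HPAFII and PATU8988S had untreated libraries and no others. KP4, PANC1 and PK45H had 5 groups each: untreated, mCherry, OVOL2, mCherry + M2rtTA and OVOL2 + M2rtTA. Transduced cells received a lentiviral open reading frame at a multiplicity of infection of 2 with 8 µg/ml polybrene, then 2.5 µg/ml puromycin and 0.6 µg/ml doxycycline from the next day. mCherry, a fluorescent protein, was the negative control, and the mCherry libraries carried virus, puromycin and doxycycline as the OVOL2 libraries did. M2rtTA is a transactivator that drives tetracycline-responsive promoters when doxycycline is present. RNA was taken after 6 days, with 100 ng for each library. Each line is 1 established tumour line, so a difference between lines is a difference between 5 cultures. Nothing in the labels says that the 3 libraries of a group came from separate cultures beyond the triplicate transduction, so p-values measure the spread between these libraries, which may be technical.

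Pancreatic cancers are often sorted into a classical type, which keeps a gastrointestinal epithelial programme, and a basal-like type, which has lost much of it. GATA6, HNF4A, FOXA2 and CDX2 are transcription factors of the endoderm and gut that act upstream in that programme: GATA6 is the usual marker of the classical type, HNF4A drives hepatic and intestinal genes, FOXA2 is a forkhead factor that opens chromatin in endoderm, and CDX2 sets intestinal identity. The other members are products of differentiated mucosa: LGALS4 is a galectin of intestinal epithelium, AGR2 is a disulfide isomerase needed for mucin folding, and TFF1, TFF2 and TFF3 are small trefoil peptides secreted with mucus.

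All 9 members are protein-coding genes in the GENCODE v29 annotation of GRCh38. GATA6 lies on chromosome 18 from 22169443 to 22202528, HNF4A on chromosome 20 from 44355700 to 44434596 and FOXA2 on chromosome 20 from 22581005 to 22585455. CDX2 lies on chromosome 13 from 27962137 to 27971139, LGALS4 on chromosome 19 from 38801671 to 38813364 and AGR2 on chromosome 7 from 16791811 to 16833433. The 3 trefoil genes stand side by side on the minus strand of chromosome 21, TFF3 at 42311667 to 42315651, TFF2 at 42346357 to 42351128 and TFF1 at 42362282 to 42366594. That stretch of 54928 bases holds 3 annotated genes, all of them trefoil genes. GATA6, HNF4A and FOXA2 overlap other annotated genes (GATA6-AS1, HNF4A-AS1 and AL121722.1 among them), and since it is not stated whether counting used strand, reads of such partners cannot be told apart in those rows.

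Promoter sequence was available for 5 of the 9 members in the RefSeq promoter table (GRCh38.p14): GATA6, HNF4A, CDX2, LGALS4 and AGR2. The bases before the annotated starts of AGR2 and HNF4A (RefSeq starts) are shown because their calls differed in the comparisons that follow. AGR2 was called between lines and on transduction of PANC1, and HNF4A in neither. The missing call of HNF4A between lines depended on 1 library, untreated PANC1 replicate 3. For AGR2 the start used is the RefSeq start at 16804999, which lies 28434 bases inside the gene as GENCODE draws it. There the most upstream transcript starts at 16833433. The 81 bases next to the RefSeq start are annotated as UTR and left out. HNF4A has an upstream and a downstream start, and the count table sums transcripts of both in 1 row. Capitals mark matches to GATAA, the core letters bound by GATA factors, searched on both strands and read 5′ to 3′ on the strand of the gene. The windows are chr7:16805081-16805249 on the minus strand, chr20:44355449-44355698 on the plus strand and chr20:44400989-44401238 on the plus strand.
AGR2: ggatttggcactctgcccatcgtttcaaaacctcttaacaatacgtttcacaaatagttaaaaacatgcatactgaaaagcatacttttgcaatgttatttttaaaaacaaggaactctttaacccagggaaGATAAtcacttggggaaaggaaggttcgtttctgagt
HNF4A upstream start: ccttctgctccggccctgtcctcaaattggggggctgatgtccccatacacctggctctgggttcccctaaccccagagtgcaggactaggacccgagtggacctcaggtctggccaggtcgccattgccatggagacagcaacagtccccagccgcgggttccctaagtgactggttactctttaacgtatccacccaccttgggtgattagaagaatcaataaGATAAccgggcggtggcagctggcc
HNF4A downstream start: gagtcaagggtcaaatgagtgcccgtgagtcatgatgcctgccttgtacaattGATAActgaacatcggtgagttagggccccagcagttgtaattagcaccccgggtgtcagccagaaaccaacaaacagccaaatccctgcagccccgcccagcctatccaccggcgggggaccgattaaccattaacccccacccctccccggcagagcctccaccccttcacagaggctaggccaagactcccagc
Each of these 3 windows held 1 match to GATAA. None held TGTTTNC (forkhead factors) or TTTATNG (CDX factors), searched in the same way, and no motif searched overlaps another. Of the 35116 promoters in the table, 15.4% hold GATAA in a window of 169 bases, the length of the AGR2 window, and 20.4% in one of 250 bases, the length of the HNF4A windows. The shares for TGTTTNC were 10.8% and 15.5%, and for TTTATNG 6.01% and 8.93%. A match is a description of letters, and the series has no binding data.

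Library totals ran from 1165399 to 7490556 counts, 15653 to 18817 genes had a count, and mitochondrial transcripts took 24.4% to 37.0% of counts. A count of 3, taken as the floor, corresponded to 0.398 to 2.34 CPM, where CPM is the count of a gene relative to the total of its library, adjusted by TMM factors over all 51 libraries. Of 8 ductal epithelial markers, the summed level was 4833 to 14503 CPM in HPAFII and PATU8988S, 652 to 1247 CPM in KP4, 2050 to 3430 CPM in PANC1 and 1923 to 4828 CPM in PK45H. In any library acinar markers summed to at most 8.28 CPM, islet markers to at most 3.11 CPM, blood cell markers (which include LYZ, also a classical companion) to at most 34 CPM and fibroblast and endothelial markers to at most 73.3 CPM. HPAFII replicate 2 had the lowest total and stood apart from its mates. For 32 genes picked as high in the mates, at least 8-fold above the other lines, its median ratio to the mean of the mates was 0.305. For all genes of at least 20 CPM in the mates the ratio was 0.781. Both sets were picked by the mates alone, which can lower these ratios. The comparisons that use HPAFII are therefore given without replicate 2 too. OVOL2 itself had 178 counts in the 9 OVOL2 + M2rtTA libraries and 42 in the 9 mCherry + M2rtTA libraries (two-sided exact permutation test within lines, p = 5e-04). By line, OVOL2 was called in KP4 (log2 fold change 3.08, edgeR adjusted p = 0.0272) and PK45H (1.98, 0.0135) and not in PANC1 (1.40, -0.19 to 2.99, edgeR adjusted p = 0.244). PANC1 OVOL2 + M2rtTA had a mean of 2.15 CPM where untreated PANC1 had 1.93 CPM, and 1 KP4 library, OVOL2 + M2rtTA replicate 2, held 62 of the 178 counts. Without M2rtTA it had 54 counts in the libraries labelled OVOL2 and 56 in the mCherry libraries (exact permutation p = 0.794), so the row does not show the delivered gene in that arm. PLATE-seq reads 3′ ends and the labels do not say whether the delivered reading frame carries the end that is counted. EPCAM and CDH1, both epithelial adhesion genes, were higher in the libraries labelled OVOL2 by a log2 fold change of 2.19 and 2.49 (mean over lines without M2rtTA, edgeR adjusted p = 1.66e-17 and 1.44e-10).

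The first comparison set the untreated HPAFII and PATU8988S libraries against the untreated libraries of KP4, PANC1 and PK45H. 7 of the 9 members were higher in HPAFII and PATU8988S and none was lower, at an adjusted p under 0.05 (edgeR quasi-likelihood test, Benjamini-Hochberg adjustment over 13785 genes). Over all genes tested 34.8% passed, and 17.4% of the genes tested passed as higher. CDX2, TFF1 and TFF3 had at most 6, 5 and 7 counts in any untreated library of KP4, PANC1 and PK45H. They passed the filter on low counts only through HPAFII or PATU8988S. These genes could thus not have been called lower here, and CDX2 and TFF1 are among the 7. The members were also chosen with earlier results of these data known. LGALS4, the trefoil genes TFF1 and TFF2, AGR2 and CDX2 had the large fold changes, GATA6 and FOXA2 smaller ones, and HNF4A and TFF3 did not pass. The median log2 fold change of the members was 3.76, and that of all genes was -0.00. In bulk RNA, fewer cells of a type and less RNA per cell cannot be told apart.

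LGALS4 was at 95.1, 52.4 and 74.6 CPM in the HPAFII libraries and at 573, 597 and 593 CPM in those of PATU8988S. In the 9 untreated libraries of KP4, PANC1 and PK45H it ran from 2.05 to 5.43 CPM, so that even the lowest HPAFII library stood far above all of them. LGALS4 differed by a log2 fold change of 5.75 (95% interval 5.31 to 6.19, edgeR adjusted p = 1.62e-10). The 3 other lines did not differ beyond their spread, with means of 4.16 ± 1.02 CPM in KP4, 3.36 ± 1.82 CPM in PANC1 and 4.18 ± 0.786 CPM in PK45H (SD, n = 3).

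AGR2 followed another pattern, with a high level in PANC1 as well. It was at 99.6, 40.6 and 105 CPM in HPAFII and at 227, 254 and 263 CPM in PATU8988S. PANC1 had 50, 47.6 and 49.1 CPM, inside the range of HPAFII because of HPAFII replicate 2, and the other lines were near the low end: KP4 had 4.39, 5.16 and 2.78 CPM and PK45H 4.62, 3.53 and 4.77 CPM. HPAFII and PATU8988S stood above the 3 other lines by a log2 fold change of 3.91 (3.51 to 4.31, edgeR adjusted p = 1.24e-09).

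The trefoil genes were high in PATU8988S. TFF2 had 177, 219 and 184 CPM there, 11.6, 12.5 and 9.43 CPM in HPAFII, and 3.13, 3.87 and 2.31 CPM in PK45H. The 6 untreated KP4 and PANC1 libraries lay at 0.287 to 1.46 CPM, below the others without overlap. TFF1 had 469, 572 and 388 counts in PATU8988S, 6, 7 and 0 in HPAFII, and at most 5 in any untreated library of the 3 other lines. TFF3 had 16, 19 and 13 counts in PATU8988S and 0 in all 3 HPAFII libraries. Against the other lines, HPAFII and PATU8988S had a log2 fold change of 5.08 for TFF2 and 4.99 for TFF1. For both of these genes PATU8988S carried most of the level, and of TFF1 the HPAFII libraries had 13 counts in all. TFF3 had 2, 0 and 3 counts in PK45H and 1 to 7 in PANC1, so its fitted value for this contrast, with 1 group at 0, is not given.

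Of the transcription factors, CDX2 had the clearest split. It had 29, 5 and 36 counts in HPAFII, 19, 27 and 19 in PATU8988S, 6, 3 and 3 in KP4, 1, 3 and 0 in PANC1 and 4, 3 and 1 in PK45H. Scaled to library totals, HPAFII and PATU8988S had 3.91 to 9.70 CPM and the highest library of the other lines 1.10 CPM. CDX2 had a log2 fold change of 3.76 (2.99 to 4.54, edgeR adjusted p = 1.51e-06). Since it passed the filter on low counts only through HPAFII or PATU8988S, it could not have been called lower in this test.

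FOXA2 did not follow the grouping of the lines. PATU8988S had 142, 112 and 117 CPM, PANC1 99.5, 65.4 and 106 CPM, HPAFII 58.2, 62.5 and 50.9 CPM, KP4 16.3, 17.4 and 12.8 CPM and PK45H 17.5, 10.9 and 15.6 CPM. PANC1 was above HPAFII in all its libraries, and KP4 and PK45H were the only neighbours in this order whose ranges overlapped. HPAFII and PATU8988S together exceeded the others by a log2 fold change of 1.63 (1.33 to 1.93, edgeR adjusted p = 4.55e-07).

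GATA6 was highest in PATU8988S, at 14.7, 19.6 and 15.8 CPM. PK45H (6.92, 8.58 and 6.21 CPM) and HPAFII (4.2, 6.25 and 8.35 CPM) overlapped. KP4 had 3.47, 2.41 and 3.42 CPM and PANC1 0.905, 1.60 and 1.72 CPM, each below the line before it without overlap. For this grouping GATA6 had a log2 fold change of 1.71 (1.28 to 2.14, edgeR adjusted p = 1.21e-05).

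HNF4A had 24.6, 28.1 and 24.3 CPM in HPAFII, 20.5, 19.4 and 34.4 CPM in PATU8988S, 17, 11.2 and 12.8 CPM in KP4, 7.24, 8.44 and 58.6 CPM in PANC1 and 8.90, 10.6 and 18.1 CPM in PK45H. All neighbours in the order of means overlapped. The highest library of all was PANC1 replicate 3. Between the line groups HNF4A had a log2 fold change of 0.65 (-0.165 to 1.47, edgeR adjusted p = 0.205), and without that library it was 1.19 with an adjusted p of 0.00038.

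**Figure D1:**
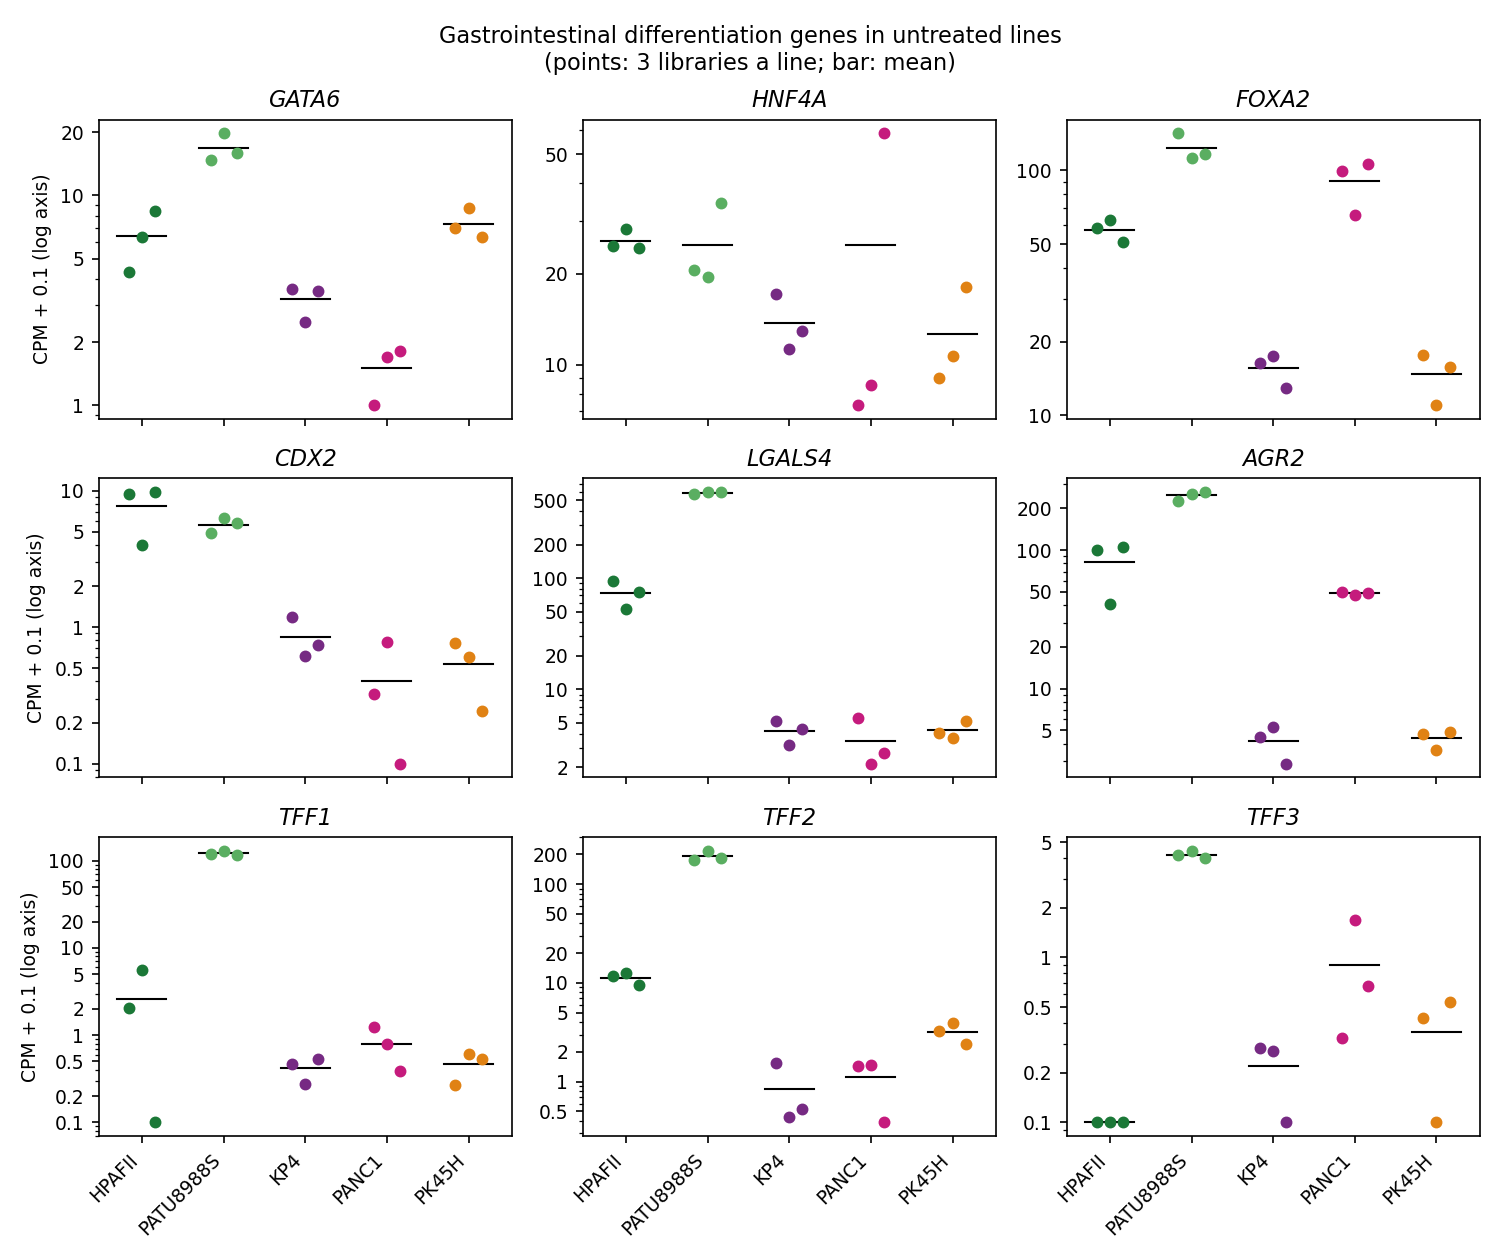
Level of each member in the 3 untreated libraries of each line, as CPM with 0.1 added on a log axis; points are libraries and bars are means. LGALS4 and CDX2 split HPAFII and PATU8988S from the other lines, whereas FOXA2 and AGR2 were also high in PANC1 and GATA6 in PK45H, and 1 PANC1 library stood above the rest for HNF4A.

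The 2 lines with high levels differed from each other too. Against HPAFII, PATU8988S had higher GATA6, FOXA2, LGALS4, AGR2, TFF1, TFF2 and TFF3, 7 of the 9 members, beside 20.2% of all genes called and 11% called higher in that comparison. The log2 fold changes were 6.06 for TFF1 (4.84 to 7.28, edgeR adjusted p = 6.66e-06), 4.10 for TFF2, 2.95 for LGALS4, 1.56 for AGR2, 1.37 for GATA6 and 1.08 for FOXA2. TFF3 was 9.97-fold higher if the HPAFII group is taken at 3 counts in all, from 48 summed counts against 0. With HPAFII taken at 3 counts in each library, the floor used elsewhere, the fold would be smaller. TFF1 and TFF3 passed the filter on low counts through PATU8988S alone, so in this comparison they could not have been called lower. CDX2 was not called (log2 fold change -0.55, -1.53 to 0.42, edgeR adjusted p = 0.433), nor was HNF4A (-0.08, -1.35 to 1.20). Without HPAFII replicate 2 the counts of members called were again 7 in both comparisons. The difference of AGR2 between PATU8988S and HPAFII was then 1.26 and that of TFF1 7.03 on the log2 scale. Against the 3 other lines, HPAFII and PATU8988S then differed by 5.84 for LGALS4, 5.04 for TFF2, 4.51 for TFF1, 4.06 for AGR2, 3.88 for CDX2, 1.71 for GATA6 and 1.59 for FOXA2.

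Among the 3 lines that were later transduced, PANC1 and PK45H each had members called higher, and KP4 had none. PANC1 had higher FOXA2 (log2 fold change 2.61) and AGR2 (3.55) and lower GATA6 (-1.72) than the mean of the others, 3 of 9 members beside 24% of all genes. PK45H had higher GATA6 (1.80) and TFF2 (1.78) and lower FOXA2 (-1.34) and AGR2 (-1.71), 4 of 9 beside 25.6%. KP4 had lower FOXA2 (-1.26) and AGR2 (-1.84), 2 of 9 beside 22.3%, which is near the share of all genes. Both of these genes were also lower in PK45H, and for both the ranges of KP4 and PK45H overlapped. TFF2 in KP4 was at -1.27 with an edgeR adjusted p of 0.0542, which was 0.007812 without KP4 untreated replicate 1, 0.02171 without PANC1 untreated replicate 3 and 0.04964 without PK45H untreated replicate 3. DESeq2 called it too (adjusted p = 0.04426). These 3 contrasts share libraries, so they are not separate evidence: the level of AGR2 and FOXA2 in PANC1 enters all of them. Within these 3 lines the factor GATA6 and the factor FOXA2 were highest in different lines.

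Other genes of the classical programme were read from lists of 34 classical companions, 30 endoderm transcription factors and 22 mucins and secretory genes. Over all genes, 34.8% were called between HPAFII and PATU8988S and the other lines, 17.4% as higher. Of 31 companions tested, 29 were higher in HPAFII and PATU8988S and 0 lower, with a median log2 fold change of 4.13. CEACAM6, an adhesion glycoprotein of tumours, averaged 482 CPM against 9.18 CPM (log2 fold change 5.60). GPX2, a gut glutathione peroxidase, differed by 5.67, CDH17, the liver-intestine cadherin, by 4.98, and the epithelial factor ELF3 by 4.31. Of the 11 mucins and secretory genes tested, 10 were higher, among them MUC1 (4.32) and the microvillus protein VIL1 (4.89). The endoderm factors were mixed: 10 of 22 were higher, such as EHF (3.76), KLF5 (2.92) and PDX1 (2.39), and HHEX (-2.01), NKX6-2 (-1.34) and GATA5 (-1.34) were lower. A list of 25 basal-like genes did not go the other way, since 7 of 12 tested were higher in HPAFII and PATU8988S and 0 lower, with KRT7 at 2.41. KRT7 is also among the ductal epithelial markers, so it is counted in both lists. Ductal epithelial markers moved the same way, with 6 of 7 tested higher and 0 lower and a median of 2.26, and their part in these values was not tested. Without HPAFII replicate 2, an alternative chosen after the data were seen, the counts higher were 31 of 32 companions, 10 of 12 mucins and secretory genes, 10 of 22 endoderm factors and 8 of 14 basal-like genes. All 32 list genes singled out by the naming rule in this comparison, ductal markers included, kept their direction and call, and none moved by more than 0.25 on the log2 scale. These lists were described by counts and have no test of their own. Of the companions, 31 were tested here and 24 over KP4, PANC1 and PK45H. Some thus passed the filter on low counts only through HPAFII or PATU8988S and could not have been called lower.

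Transduction and selection alone were compared next, as mCherry against untreated libraries. AGR2 in PANC1 was the 1 member called. The 3 untreated PANC1 libraries had 50, 47.6 and 49.1 CPM, and all 12 transduced PANC1 libraries lay between 18.8 and 23.6 CPM, whatever the reading frame. The groups did not overlap, and the means were 48.9 ± 1.19 CPM untreated and 21.3 ± 0.283 CPM with mCherry (SD, n = 3). The log2 fold change was -1.18 (-1.44 to -0.929, edgeR adjusted p = 0.000362), 1 of 5 members tested beside 0.598% of all genes, 0.325% as lower. The untreated libraries also lacked virus, puromycin and doxycycline, and these cannot be told apart. In KP4, 0 of 5 members were called in this comparison, with 0 at an unadjusted p under 0.05 and 0% of all genes called by edgeR, and AGR2 was at -0.19 (-1.01 to 0.632). In PK45H, 0 of 6 were called, with 1 at an unadjusted p under 0.05 (TFF2, 0.86, edgeR adjusted p = 0.611) and 0.00736% of all genes called.

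No member was called for M2rtTA without OVOL2. In KP4, PANC1 and PK45H, 0 of 5, 0 of 5 and 0 of 6 members were called by edgeR for mCherry + M2rtTA against mCherry, with 0 in each at an unadjusted p under 0.05; 0%, 0% and 0.0294% of all genes were called. DESeq2 called 0 members in each of these comparisons and in those of mCherry against untreated KP4 and PK45H cells. GATA6 had log2 fold changes of -0.67 in KP4 (-1.57 to 0.238), -0.76 in PANC1 (-1.70 to 0.182) and -0.30 in PK45H (-0.818 to 0.219). The mCherry + M2rtTA libraries are the control of the comparisons of GATA6 with M2rtTA, so they are shared.

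OVOL2 was then compared with mCherry in each line, without and with M2rtTA. CDX2, TFF1 and TFF3 were too low to be tested in any of the 3 lines, and TFF2 was tested in PK45H and left out in KP4 and PANC1. Of the members tested, 2 were called over the 6 comparisons: GATA6 rose in PANC1 with M2rtTA and FOXA2 rose in PK45H without it. LGALS4, which separated the lines, and AGR2 were called in none of the 6. By comparison, 0 of 5 members were called in KP4 without M2rtTA (6.84% of all genes called, 0 members at an unadjusted p under 0.05) and 0 of 5 with it (22.4%, 2 at an unadjusted p under 0.05). In PANC1, 0 of 5 were called without M2rtTA (5.08%, 1 at an unadjusted p under 0.05) and 1 of 5 with it (13.9%, with 5.76% as higher). In PK45H, 1 of 6 was called without M2rtTA (8.39%, with 3.58% as higher) and 0 of 6 with it (15.9%, 1 at an unadjusted p under 0.05). All of these p-values are from edgeR, and DESeq2 called the same number of members in each but PANC1 without M2rtTA, where it called 1.

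GATA6 in PANC1 had 4, 6 and 3 counts with mCherry + M2rtTA and 10, 19 and 12 with OVOL2 + M2rtTA. Scaled, these were 0.889, 1.16 and 0.623 CPM against 2.44, 2.72 and 2.82 CPM, with no overlap. The PANC1 libraries of the other groups were all below OVOL2 + M2rtTA: untreated 0.905 to 1.72 CPM, mCherry 1.35 to 1.72 CPM and libraries labelled OVOL2 1.01 to 2.15 CPM, the first and the last overlapping mCherry + M2rtTA. GATA6 rose by a log2 fold change of 1.58 (0.667 to 2.49, edgeR adjusted p = 0.0238). This call rests on few counts: without OVOL2 + M2rtTA replicate 2 or 3 the adjusted p was 0.07118 or 0.06947, without mCherry + M2rtTA replicate 1 or 3 it was 0.07463 or 0.09629, and it was also lost with no filter (0.0796), with only the groups compared (0.05459) and with robust dispersion (0.05035). With a mean count of at least 10, or with every library thinned to the smallest, GATA6 was too low to be tested in PANC1. OVOL2 itself was not called in PANC1 with M2rtTA.

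KP4 showed GATA6 at 1.12, 2.04 and 1.94 CPM with mCherry + M2rtTA and at 4.69, 3.37 and 2.56 CPM with OVOL2 + M2rtTA, again without overlap. In this line the log2 fold change was 1.07 (0.189 to 1.95, edgeR adjusted p = 0.0779). In one fit of all 51 libraries the edgeR adjusted p was 0.02039. The untreated KP4 libraries had 2.41 to 3.47 CPM, overlapping the OVOL2 + M2rtTA libraries. In PK45H, which had more GATA6 at the start, the levels were 6.05, 8.33 and 6.96 CPM with mCherry + M2rtTA and 5.66, 5.70 and 5.21 CPM with OVOL2 + M2rtTA. There the OVOL2 libraries were the lower ones, by a log2 fold change of -0.35 (-0.886 to 0.177, edgeR adjusted p = 0.375).

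Over the 3 lines, GATA6 rose with M2rtTA by a mean log2 fold change of 0.76 (0.373 to 1.16, edgeR adjusted p = 0.00209), 1 of 6 members called beside 32.9% of all genes, 15.7% as higher. The direction held in 2 of the 3 lines, and the effect differed between lines (edgeR adjusted p = 0.0107). Without M2rtTA 0 of 6 members were called (18.1% of all genes called, 1 member at an unadjusted p under 0.05, 0 by DESeq2) and the mean of GATA6 was -0.12 (-0.503 to 0.263), and the difference of the arms was 0.88 (0.338 to 1.43, edgeR adjusted p = 0.0368), 1 of 6 members beside 7.72% of all genes, 2.61% as higher. The difference of the arms lost its call, with edgeR adjusted p from 0.05079 to 0.06958, when any 1 of 15 libraries was left out: in KP4 OVOL2 + M2rtTA replicate 1, OVOL2 replicates 1 and 3, mCherry + M2rtTA replicate 1 and mCherry replicates 1 and 3; in PANC1 OVOL2 + M2rtTA replicate 3, OVOL2 replicate 3, mCherry + M2rtTA replicates 1 and 3 and mCherry replicate 2; in PK45H OVOL2 + M2rtTA replicate 2, OVOL2 replicate 3, mCherry + M2rtTA replicate 1 and mCherry replicate 3. A two-sided exact permutation test of GATA6 with M2rtTA, labels exchanged within lines, gave p = 0.0213, where the smallest p possible is 0.00025. With every library thinned to 1165399 counts, the mean was 0.45 with an edgeR adjusted p of 0.4947, and the difference between lines had an adjusted p of 0.577. Even at its highest in PANC1 (2.66 ± 0.198 CPM, SD, n = 3) GATA6 stayed below every untreated HPAFII and PATU8988S library, of which the lowest had 4.2 CPM. This did not hold in the other lines. KP4 OVOL2 + M2rtTA replicate 1 was at 4.69 CPM, and the PK45H libraries of all groups were at 5.21 to 11.7 CPM.

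FOXA2 was called in 1 line and 1 arm. In PK45H without M2rtTA it was at 15.2, 11.2 and 8.73 CPM with mCherry and at 34.0, 38.7 and 28.8 CPM in the libraries labelled OVOL2, which were the 3 highest of that line's 15. FOXA2 rose there by a log2 fold change of 1.5 (0.828 to 2.16, edgeR adjusted p = 0.00854). With M2rtTA the PK45H libraries overlapped, at 15.5, 12.8 and 11.8 CPM for mCherry and 15.2, 9.84 and 25.6 CPM for OVOL2, with a log2 fold change of 0.35 (-0.307 to 0.998, edgeR adjusted p = 0.493).

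In PANC1, the line with the most FOXA2 of the 3, the 6 mCherry libraries of both arms held 56.9 to 85.5 CPM and the 6 OVOL2 libraries 40.2 to 48.5 CPM. These ranges did not overlap, but neither arm passed the threshold. The log2 fold change was -0.63 without M2rtTA (-1.01 to -0.245, edgeR adjusted p = 0.0584) and -0.43 with it (-0.81 to -0.0437, edgeR adjusted p = 0.136). Without M2rtTA, DESeq2 gave an adjusted p of 0.04152, edgeR with robust dispersion 0.04228, and edgeR without PANC1 untreated replicate 2 0.03158. In KP4 FOXA2 was at 0.07 (-0.567 to 0.697) and -0.50 (-1.15 to 0.16) in the same order. The test of a difference between the 3 lines gave FOXA2 an edgeR adjusted p of 0.0025 without M2rtTA, 1 of 6 members beside 2.75% of all genes, and 0.30 with M2rtTA, where GATA6 was the 1 of 6 members called beside 7.56%.

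HNF4A varied widely between libraries of a group. Single libraries held most of a group's level: PANC1 mCherry + M2rtTA replicate 1 had 829 counts and 90.1% of the group's summed CPM, PANC1 mCherry replicate 1 had 576 and KP4 OVOL2 + M2rtTA replicate 2 had 463. In 10 of the 17 groups 1 library had over 50% of the summed CPM. OVOL2 in PANC1 with M2rtTA gave HNF4A a log2 fold change of -2.83 with an interval from -5.60 to -0.0659 (edgeR adjusted p = 0.172). Without mCherry + M2rtTA replicate 1 it was -0.07 (edgeR adjusted p = 0.9814). In KP4 with M2rtTA HNF4A was at 1.79 (0.287 to 3.29, edgeR adjusted p = 0.0832). This value was 0.35 without OVOL2 + M2rtTA replicate 2 (edgeR adjusted p = 0.73) and 2.24 without OVOL2 + M2rtTA replicate 3 (edgeR adjusted p = 0.02544), so 1 library set its size in each line. The median over the 15 libraries was 15.1 CPM in KP4, 11.6 CPM in PANC1 and 9.58 CPM in PK45H.

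**Figure D2:**
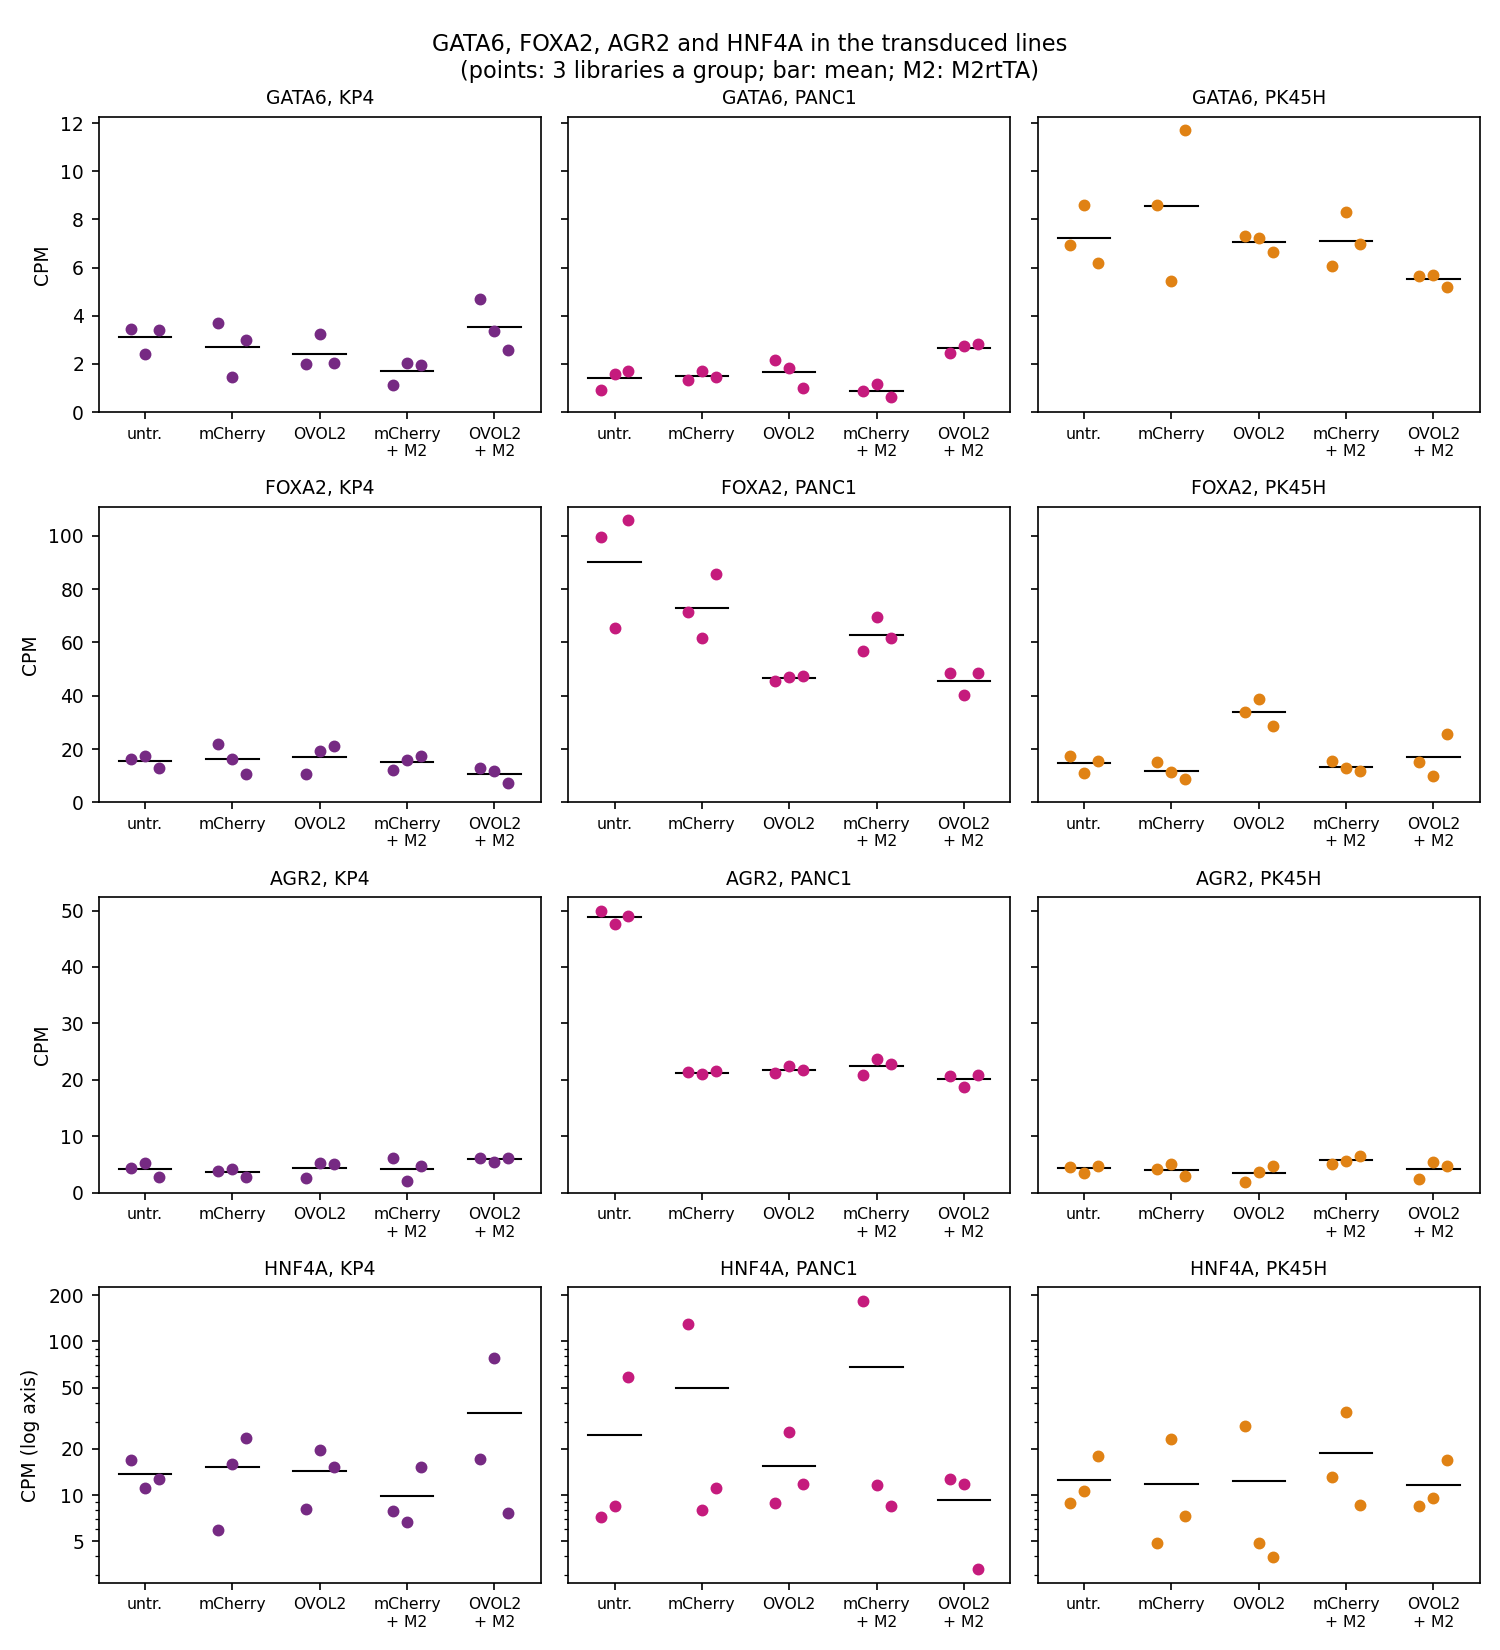
Level in CPM of GATA6, FOXA2, AGR2 and HNF4A (log axis for HNF4A) in the 5 groups of KP4, PANC1 and PK45H; points are libraries, bars are group means and M2 stands for M2rtTA. AGR2 in PANC1 was at a mean of 48.9 CPM untreated and at 18.8 to 23.6 CPM in the transduced libraries, FOXA2 stood out in the PK45H libraries labelled OVOL2, and HNF4A had single high libraries.

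LGALS4 stayed at its low level. Over all 45 libraries of KP4, PANC1 and PK45H it ran from 5 to 43 counts (1.01 to 9.70 CPM, median 4.26 CPM), and the lowest HPAFII library had 52.4 CPM. The mean log2 fold change of OVOL2 was -0.04 without M2rtTA (-0.60 to 0.51) and -0.28 with it (-0.825 to 0.268, edgeR adjusted p = 0.467). The upper ends of these intervals were 0.51 and 0.268, beside the 5.75 by which the lines differed. In PK45H with M2rtTA, OVOL2 replicate 3 was at 9.70 CPM where its mates were at 2.85 and 1.01 CPM. Without it the log2 fold change in that line was -1.52 (edgeR adjusted p = 0.03026) and the mean over lines -0.69 (edgeR adjusted p = 0.03115).

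AGR2 had a mean log2 fold change of 0.05 without M2rtTA (-0.293 to 0.386) and -0.04 with it (-0.369 to 0.281, edgeR adjusted p = 0.869). In PANC1, where it was best measured, the values were 0.05 (-0.212 to 0.303) and -0.13 (-0.384 to 0.131). The highest OVOL2 library of PANC1 had 22.4 CPM, less than the 47.6 CPM of the lowest untreated one.

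**Figure D3:**
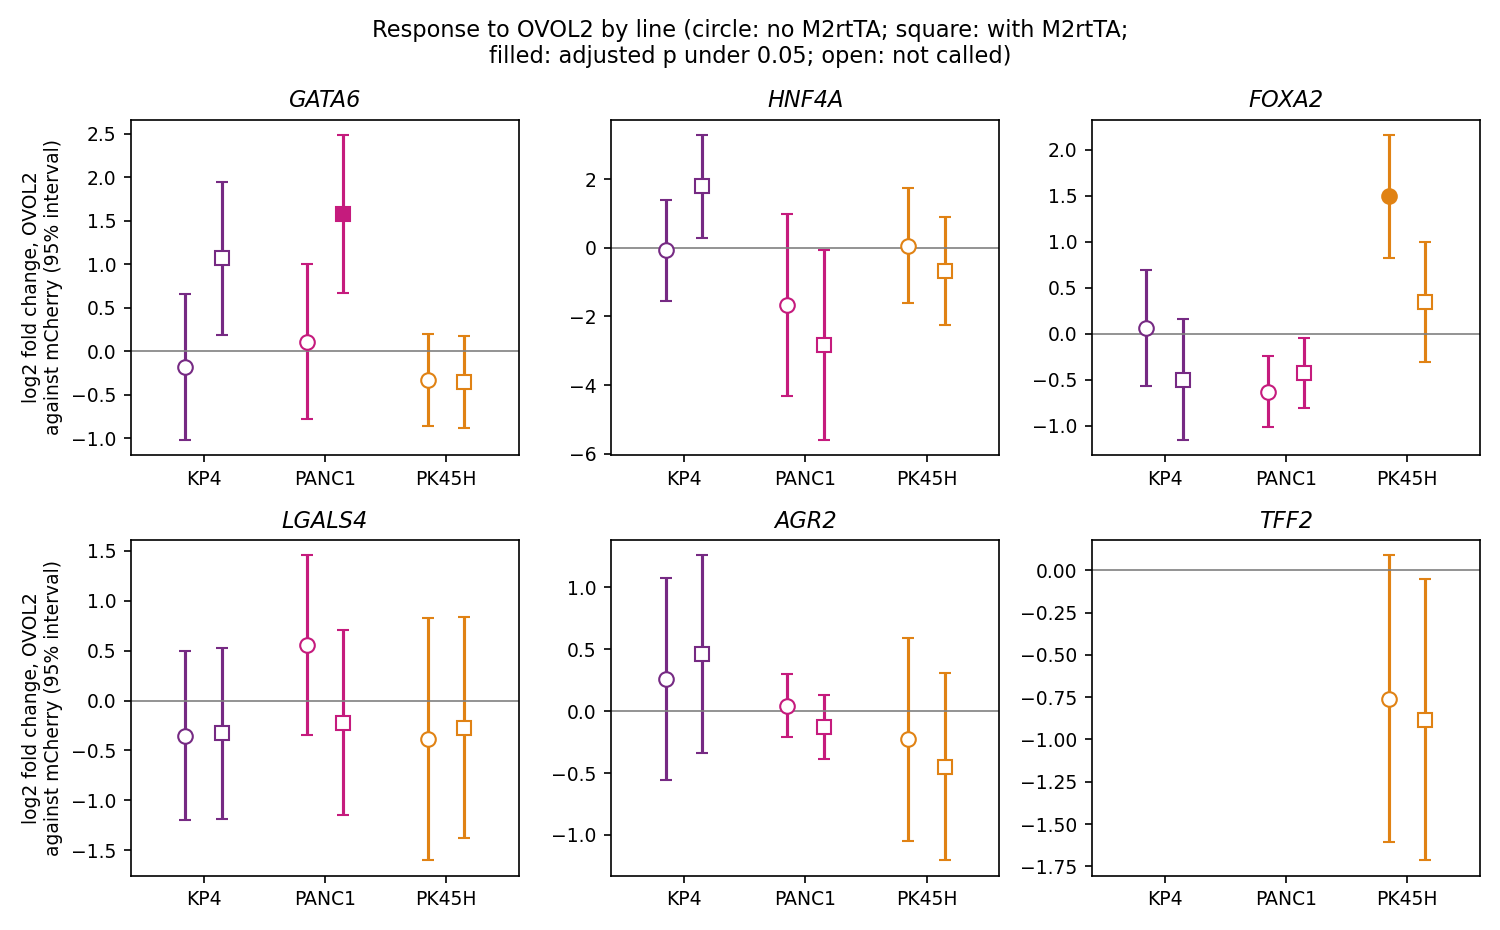
Log2 fold change of OVOL2 against mCherry with its 95% interval for the 6 members that could be tested, by line; circles are without M2rtTA, squares with it, and filled symbols passed an adjusted p of 0.05. The filled symbols are GATA6 in PANC1 with M2rtTA (1.58) and FOXA2 in PK45H without it (1.5); HNF4A has the widest intervals and AGR2 in PANC1 the narrowest.

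The members left out by the filter on low counts did not reach the levels of PATU8988S under any treatment. Over the 45 libraries of the 3 lines CDX2 had 0 to 8 counts, TFF1 0 to 8 and TFF3 0 to 11. Summed over the 9 libraries a side, CDX2 had 18 counts with OVOL2 and 29 with mCherry without M2rtTA, and 20 and 12 with it (two-sided exact permutation tests within lines, p = 0.108 and 0.196). TFF1 had 30 and 22 counts, then 27 and 25 (exact permutation p = 0.253 and 0.366). No difference was detected in either gene at this depth.

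TFF3 had few counts in the OVOL2 libraries of PK45H. The 3 mCherry libraries had 4, 3 and 9 counts and those with mCherry + M2rtTA 11, 5 and 6. The libraries labelled OVOL2 had 0, 0 and 2, and those with OVOL2 + M2rtTA 0, 0 and 0. Within each arm the ranges did not overlap, although the untreated PK45H libraries had only 2, 0 and 3 counts, close to the OVOL2 groups. With M2rtTA the mCherry level was 5.12-fold higher if the OVOL2 + M2rtTA group is taken at 3 counts in all, from 22 counts against 0. With that group taken at 3 counts in each library, the fold would be smaller. Over the 3 lines, TFF3 had 5 counts with OVOL2 and 23 with mCherry without M2rtTA (two-sided exact permutation test within lines, p = 0.014), and 10 against 33 with it (p = 0.116). These are 2 of 6 such tests on the members left out, and their p-values are unadjusted. With no filter on low counts, the edgeR fit called TFF3 lower in PK45H with M2rtTA (adjusted p = 0.03629).

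TFF2 in PK45H had 6.2, 7.12 and 3.45 CPM with mCherry and 4.72, 2.52 and 2.90 CPM in the libraries labelled OVOL2, and these ranges overlapped. With M2rtTA the mCherry libraries had 4.21 to 7.77 CPM and the OVOL2 libraries 2.07 to 3.79 CPM, without overlap. The log2 fold changes were -0.76 (-1.60 to 0.0888) and -0.88 (-1.72 to -0.0495, edgeR adjusted p = 0.145), neither called. The untreated PK45H libraries, at 2.31 to 3.87 CPM, lay at the level of the OVOL2 libraries.

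Companion genes gave the setting for these values. Of 24 classical companions tested over the 3 lines, 3 rose without M2rtTA and 0 fell, where 9.31% of all genes rose and 8.81% fell. With M2rtTA the shares of all genes were 15.7% and 17.3%. Of the companions, 6 rose and 1 fell with M2rtTA, and their median log2 fold change was 0.40 beside 0.03 for all genes. The 6 were GPRC5A (0.50), an orphan receptor of epithelia, ELF3 (0.84), SPINK4 (1.14), CEACAM6 (0.55), SDR16C5 (2.08) and CAPN8 (1.10), and PLS1, a microvillus bundling protein, fell by 0.70. The effect differed between lines for SPINK4 (edgeR adjusted p = 0.00625), which was at 2.92 in PK45H, 0.84 in PANC1 and -0.33 in KP4, and for CAPN8 (edgeR adjusted p = 0.0303), at 1.26 in PANC1 and 2.84 in PK45H, so these means do not describe each line. By line, SDR16C5 could be tested with M2rtTA in PK45H only (1.62). CEACAM6 reached 12.2 CPM on average, far under the 482 CPM of the untreated HPAFII and PATU8988S libraries.

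The counts of the other lists stand beside the same shares of all genes. Without M2rtTA 9.31% rose and 8.81% fell, and with it 15.7% rose and 17.3% fell. Of 19 endoderm factors tested, 1 rose (KLF4, 0.80) and 3 fell without M2rtTA (ONECUT2, NKX6-2 and NR5A2). With M2rtTA 4 rose, MNX1 (1.00), SOX2 (0.66), FOXP4 (0.23) and KLF4 (0.71), and HHEX (-1.12) and NKX6-2 (-0.87) fell. Of 13 mucins and secretory genes, MUC3A rose without M2rtTA (0.98). With it MUC3A (1.18), MUC12 (1.42) and the gastric mucin MUC5AC (3.63, from 0.236 to 1.74 CPM on average) rose and MUC1 fell by 1.04. MUC5AC was too low to be tested in any single line. MUC3A with M2rtTA differed between lines, at -0.36 in PK45H, 0.89 in PANC1 and 3.00 in KP4 (edgeR adjusted p = 0.000389), and so did NKX6-2 without M2rtTA (edgeR adjusted p = 0.00432), at -1.99 in PANC1. Of 14 basal-like genes, 4 rose without M2rtTA and 7 with it, and 0 fell, among them the protease CTSV (2.99), KRT17 (3.31) and S100A2 (1.11) with M2rtTA. CTSV and S100A2 differed between lines with M2rtTA (edgeR adjusted p = 1.24e-08 and 2.5e-07), and S100A2 was at -0.30 in PANC1. By line, KRT17 could be tested with M2rtTA in KP4 only (4.10). As means over lines, 3 of 8 ductal epithelial markers rose without M2rtTA and 6 of 8 with it, and 0 fell. KRT7, which rose with M2rtTA, is counted in both the basal-like and the ductal list. With M2rtTA the effect differed between lines for KRT7, KRT8, KRT18 and KRT19 (edgeR adjusted p = 0.00857, 0.00108, 9.59e-08 and 5.98e-10). In PANC1 these were at 0.03, -0.22, -0.29 and -0.56. In each arm of PANC1, 2 of 7 ductal markers tested were called higher and 1 lower. Of all genes in PANC1, 2.12% were called higher and 2.96% lower without M2rtTA, and 5.76% and 8.18% with it. The part of these markers in the values of the members was not tested.

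**Figure D4:**
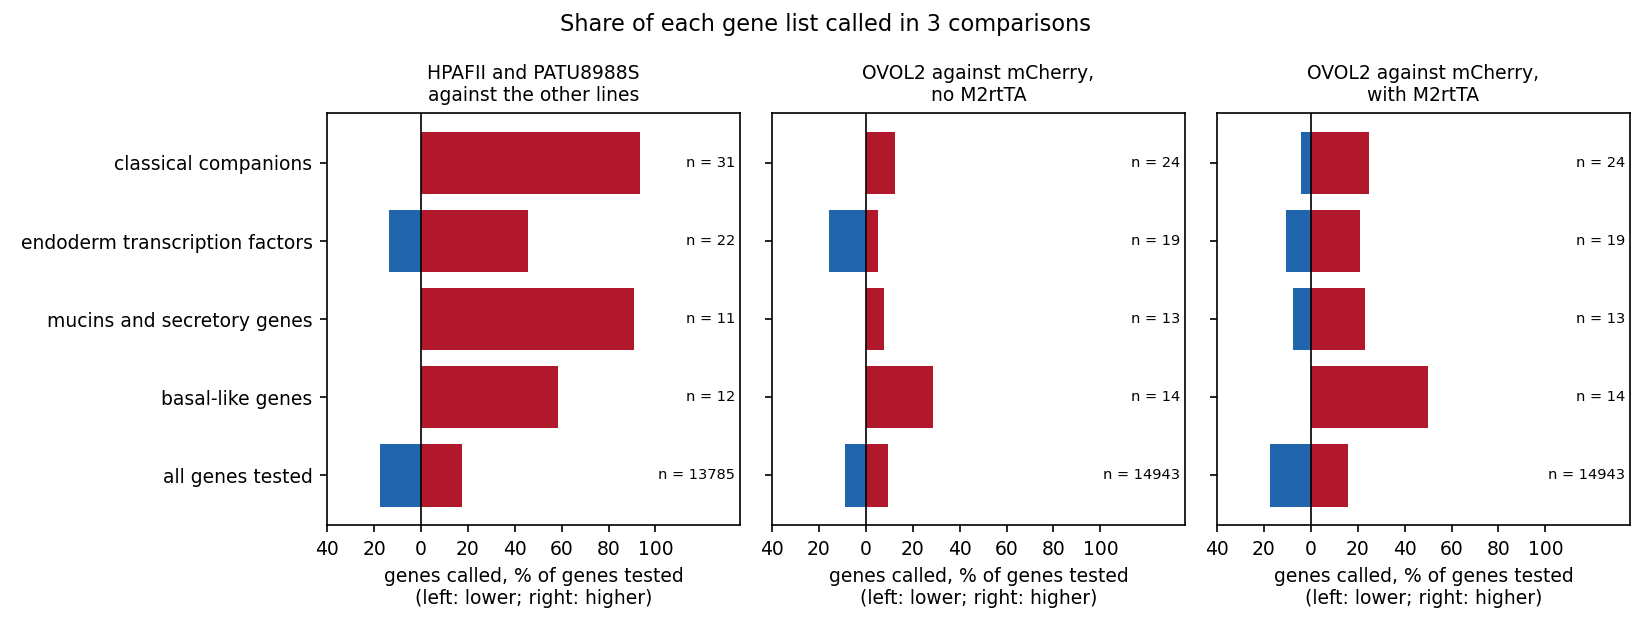
Share of the tested genes of each list called higher (right) or lower (left) at an adjusted p under 0.05, for untreated HPAFII and PATU8988S against the other lines and for OVOL2 against mCherry over 3 lines without and with M2rtTA; n is the number of genes tested. Companions (29 of 31) and mucins (10 of 11) were higher in HPAFII and PATU8988S, while with OVOL2 and M2rtTA 7 of 14 basal-like genes rose and 6 of 24 companions did. Of all genes tested, 17.4% were higher in HPAFII and PATU8988S and 15.7% rose with OVOL2 and M2rtTA.

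Across the means of the 17 groups, the members fell into looser and tighter pairs. As a description, Pearson's r of log2(CPM + 1) was 0.927 for LGALS4 with TFF1, 0.888 for CDX2 with LGALS4, 0.887 for TFF1 with TFF2 and 0.885 for AGR2 with FOXA2. GATA6 was at 0.814 with TFF2, 0.573 with LGALS4, 0.555 with TFF1 and 0.514 with TFF3. With CDX2 it was at 0.378, with AGR2 at 0.109, with FOXA2 at -0.118 and with HNF4A at -0.291. These points share lines, and 15 of the 17 groups come from 3 of them, so they are not independent. Among 12392 other genes, those most like LGALS4 were TM4SF5 (0.988), ERN2 and VSIG1 (0.984 each), and those most like TFF1 were REG4 (0.983), PHGR1 (0.982) and CLDN2 (0.981). AGR2 was most like ANXA4 and FOXQ1 (0.948 each), FOXA2 like FOXQ1 (0.928), CDX2 like LAD1 (0.955) and TM4SF4 (0.954), and TFF2 like TSPAN3 (0.957). GATA6 was most like ARFGEF3, MSRB2 and TNIK (0.94 each), TFF3 like SLC37A4 (0.88) and HNF4A like STK31 (0.817).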

How the data were processed

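Counts per gene symbol were deposited by the authors as whole numbers without normalisation, 1 column for each of 51 libraries, and were used as deposited. Per the submitters' processing notes, kallisto 0.44.0 and GRCh38 were used. The transcript annotation, the use of strand and the handling of molecular identifiers are not given in the sources used here. Counts may therefore include amplification copies. The intervals are those of fold changes from the edgeR fits. Like the edgeR p-values, they measure the spread between these libraries, which may be technical. Of the 25421 symbols, 24193 matched the reference gene table, and 0 columns were left unmatched.

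Members and gene lists were chosen with earlier results of these data known. Counts were tested in R 4.3.3 with edgeR 4.0.16: filterByExpr by group, TMM, the quasi-likelihood test, two-sided, and Benjamini-Hochberg adjustment over all genes tested, with a threshold of 0.05. The 15 untreated libraries shared a fit, each transduced line had a fit of its 15 libraries, and means over lines came from a fit of 45. Members left out by the filter were compared by exact permutation of log2(CPM + 1) within lines (8000 permutations). Replicate numbers did not pair libraries (correlations of deviations over 0.1 in 1 of 30 pairs in KP4, 3 of 30 in PANC1 and 0 in PK45H and the untreated lines). The 0 identical libraries were sought over 51 pairs within groups. On simulated counts for PANC1 with M2rtTA (12905 genes), the test recovered 22.2% of genes changed by 1 and 73.7% of genes changed by 2 on the log2 scale.

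Named genes were the members, OVOL2, at most 6 genes of a list with the smallest p in each direction, and the 3 genes most like a member by Pearson's r over group means. The DESeq2 1.42.0 test, RLE scaling, other filters, other fits, a replicate block, thinning, a prior count of 0.5 and leaving out each library were tried as alternatives. List counts without HPAFII replicate 2 were added after the data were seen.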

Additional observations from a re-analysis of the deposited data

Results flagged for a closer look

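The response of FOXA2 to OVOL2 without M2rtTA differed between KP4, PANC1 and PK45H by a test of the difference itself (edgeR adjusted p = 0.0025): the log2 fold changes were 0.07, -0.63 and 1.5 in that order. The response of GATA6 with M2rtTA differed between the same lines (edgeR adjusted p = 0.0107), at 1.07, 1.58 and -0.35. The GATA6 response, as a mean over lines, also differed between the arms with and without M2rtTA by 0.88 on the log2 scale (edgeR adjusted p = 0.0368). The cause of these differences was not tested.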

How the results depend on the processing

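Of 1290 values of single members under other settings, 1271 kept their side of the threshold, 13 lost and 6 gained a call, and 0 called values changed sign. Values uncalled both times count as kept. Settings under which a member was not tested are left out of these totals. GATA6 in PANC1 with M2rtTA on thinning is thus not among the 13. With 1 library left out, 2958 of 2985 kept their side, 19 lost and 8 gained a call, and again 0 reversed. Among the values that kept their side, 15 and 96 were uncalled and changed sign. The counts of members called moved as follows. With all 51 libraries in one fit, 1 was called in KP4 with M2rtTA and 1 in PK45H with M2rtTA, from 0. DESeq2 and robust dispersion each called 1 in PANC1 without M2rtTA, from 0. In PANC1 with M2rtTA the count of 1 became 0 with no filter, only the groups compared and robust dispersion, and with a mean count of at least 10 and thinning, where GATA6 was not tested; no filter gave 1 in PK45H with M2rtTA. The difference of the arms went from 1 to 0 with no filter, only the groups compared, robust dispersion and thinning. Thinning to 1165399 counts also took the mean over lines with M2rtTA and the difference between lines with M2rtTA from 1 to 0, PK45H against the other untreated lines from 4 to 2, HPAFII and PATU8988S against the others from 7 to 6, PATU8988S against HPAFII from 7 to 5, PANC1 against the others from 3 to 2, and KP4 with M2rtTA from 0 to 1. PATU8988S against HPAFII had 6 with a mean count of at least 10, and untreated KP4 against the others had 3 with DESeq2 and with robust dispersion, from 2.

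With 1 library left out, members called ranged from 7 to 8 for HPAFII and PATU8988S against the others, from 2 to 3 for KP4 against the others, from 0 to 1 for KP4 with M2rtTA, PANC1 without and with M2rtTA, PK45H with M2rtTA and the difference of the arms, and from 1 to 2 for the line average of the M2rtTA arm. The other counts were unchanged. The replicate block changed no count of members called, and no paired reading is made since the numbers did not pair libraries; GATA6 in PANC1 with M2rtTA was at 1.59 (edgeR adjusted p = 0.03734) and FOXA2 in PK45H at 1.53 (edgeR adjusted p = 0.01281) with it. The cause of these shifts was not tested, beyond the lower counts that thinning leaves.

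Over all genes, calls for HPAFII and PATU8988S against the others went from 4795 to 3064 on thinning, for the mean with M2rtTA from 4923 to 3114 and without from 2708 to 1522, and for the difference of the arms from 1154 to 398. For mCherry against untreated, DESeq2 called 11 genes in KP4, 192 in PANC1 and 22 in PK45H where edgeR called 0, 79 and 1. For M2rtTA alone DESeq2 called 16, 21 and 58 where edgeR called 0, 0 and 4. With only the groups compared, OVOL2 without M2rtTA had 530 genes called for KP4 instead of 934, 302 for PANC1 instead of 671 and 628 for PK45H instead of 1139. Depth limits CDX2, TFF1 and TFF3, which had at most 11 counts in any library of KP4, PANC1 and PK45H.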
